A study of Mus musculus with 10 samples.

Results

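The mitochondrial genome is a small circle of DNA that each mitochondrion keeps apart from the chromosomes of the nucleus. Its transcripts were followed here in 10 mouse pancreatic tumors, as the rows of the expression table whose mouse gene symbol begins with mt-. There were 37 such rows among 55359, made up of 13 mRNAs, 2 rRNAs and 22 tRNAs. The rows follow from the names of the genes and from no expression value. Earlier results of these data were known when this set of genes was chosen. The tumors were grown orthotopically in the pancreas of C57BL/6 mice (C57BL/6 J in the study's methods) from K8484 cells, a line derived from the KPC mouse model of pancreatic ductal adenocarcinoma (PDAC). Per the study's methods for the orthotopic experiments, the cells also carried luciferase, the mice were 10 weeks old at implantation, and male and female mice were used in equal numbers. The 5 D30 tumors came from mice made hyperglycemic with drinking water containing 30% dextrose for 14 days, and the 5 CTRL tumors came from normoglycemic mice that drank regular water. All 10 tumors thus derive from 1 cell line, although the sample titles call them PDX, and the labels describe them as independent biological replicates. A tumor is named here by its column of the table, N1, N2, N4, N5 and N6 for CTRL and T1, T2, T4, T5 and T7 for D30.

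Mitochondrial DNA is transcribed from both strands into long precursors by a dedicated polymerase, and the tRNAs that lie between the mRNAs and rRNAs mark the places where the precursors are cleaved. The mRNAs encode core subunits of the respiratory chain, which passes electrons to oxygen through complexes I, III and IV, and of the ATP synthase, complex V. The rRNAs and tRNAs serve the ribosomes inside the mitochondrion that translate these mRNAs. All other subunits, and every protein that copies, transcribes or processes mitochondrial DNA and RNA, are encoded in the nucleus.

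Recovered reads ranged from 29192261 to 42122304 per tumor. Tumors T4 and T5 stood apart from the rest of the D30 group. T4 was the only tumor with reads on Y-linked genes (841, against 0 in all others). The methods give equal numbers of male and female mice for the orthotopic experiments, but no sex per tumor. T4 also had the highest summed level of macrophage markers (69272 normalized counts). These markers summed to 26365 to 57463 in CTRL and to 12665 to 22232 in the other 4 D30 tumors. Of the 8, 6 had lower fitted levels in D30, 1 of them past the threshold (limma, adjusted p under 0.05). Of all genes tested, 2.76% passed this threshold in either direction, and 45.3% had higher fitted levels in D30. T5 had the fewest genes with a read (20482, against 23446 to 25912) and the highest summed level of erythroid markers (178388, against 3930 to 11632) and of neutrophil markers (15446, against 635 to 5758). The 8 markers of epithelial tumor cells summed to 224679 or more in every tumor and to more in each D30 tumor (377561 to 500428) than in any CTRL tumor (224679 to 355284). Of these 8, 7 had higher fitted levels in D30 and 1 a lower one (log2 fold change -3.17), and 0 passed the threshold. The 13 markers of acinar cells, the enzyme-secreting cells of the pancreas, summed to 357 to 69980 in CTRL and to 187 to 6766 in D30 tumors, with 8 of the 13 at 0 in T5. The 9 islet markers summed to 37.2 to 1537 in CTRL and to 89.4 or less in D30, the 8 fibroblast markers to 76539 to 135533 and 26981 to 102553, and the 7 endothelial markers to 11885 to 18968 and 5056 to 9744. Fitted levels were lower in D30 for 12 of the 13 acinar markers and for all islet, fibroblast and endothelial markers. Past the threshold were 5 of the 9 islet and 1 of the 7 endothelial markers, and 0 of the fibroblast and acinar markers. The part of these differences in the values given here was not tested, and in bulk tumor RNA fewer cells of a type cannot be told apart from less RNA per cell.

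On the mouse mitochondrial genome (GENCODE M21 on GRCm38) the genes lie end to end, and several share bases. mt-Atp8 and mt-Atp6, the mRNAs for the membrane subunits of ATP synthase made in the mitochondrion, overlap by 43 bases, and mt-Nd5 and mt-Nd6, which lie on opposite strands, by 14 bases. The 43 shared bases are shown because they belong to both genes. The capitals mark the start codon of mt-Atp6 and the stop codon of mt-Atp8, and the sequence is that of M21.
mt-Atp8 and mt-Atp6 overlap: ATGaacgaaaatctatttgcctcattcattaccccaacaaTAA

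Near-identical copies of mitochondrial DNA also lie in the nuclear genome. A block of 4663 bases at chr1:24611535-24616197 (GRCm38, minus strand) holds 7 annotated genes that match mitochondrial mRNAs at 99% identity or more. Gm28661 matches mt-Co2 (chrM:7013-7696) over 99.6% of its length, Gm10925 matches mt-Atp6 over 99.6%, Gm28437 matches mt-Co3 over 99.9%, Gm28438 matches mt-Nd3 over 99.1% and Gm10222 matches mt-Nd4l over 98.99%. Gm28439 matches the first 63.6% of mt-Nd4 and Gm29216 the last 31.3% of mt-Co1. mt-Atp8 has no annotated copy, but the copies of its neighbors mt-Co2 and mt-Atp6 are separated by 233 bases on chromosome 1, the same number that separates the matched bases on the mitochondrial genome, where mt-Atp8 begins. No copy at 99% identity was annotated for mt-Nd1, mt-Nd2, mt-Nd5, mt-Nd6 and mt-Cytb. The first 120 bases of mt-Co2 and of 2 of its copies (M21) show how little separates them. Capitals mark the bases at which Gm13341, a copy on chromosome 2 with 95.9% identity over the whole gene and shown here for its sequence only, differs from mt-Co2, which are C25T and G57A counted from the first base of the mt-Co2 transcript, with the base of mt-Co2 given first.
mt-Co2: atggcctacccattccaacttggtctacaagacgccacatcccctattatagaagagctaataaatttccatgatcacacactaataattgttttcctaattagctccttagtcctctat
Gm28661: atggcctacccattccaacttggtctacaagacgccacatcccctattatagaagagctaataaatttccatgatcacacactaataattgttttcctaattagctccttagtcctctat
Gm13341: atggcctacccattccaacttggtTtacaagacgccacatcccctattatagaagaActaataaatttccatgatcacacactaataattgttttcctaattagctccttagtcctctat

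D30 was first compared with CTRL over all mitochondrial genes, to ask whether hyperglycemia altered their expression in the tumor. No gene of the mitochondrial genome passed the test. Of the 37 genes, 31 reached a mean of 1 normalized count (the unit of the table, in which the reads of a tumor are scaled by its size factor) and were tested, and 0 of these 31 were called by limma at an adjusted p under 0.05, where 2.76% of all 24560 genes tested were called. Those 678 genes were 344 higher and 334 lower in D30, a split that became 240 and 626 with scaling by library size. At an unadjusted p under 0.05 there was 1 of 31, mt-Nd2, against 17.3% of all genes. edgeR called 0 of 31 on the recovered reads (2.61% of all genes) and DESeq2 called 0 (7.97%). limma also called 0 of 31 (8.57%) without T4 and T5. The groups overlapped for each of the 31 genes, whereas 6.19% of all tested genes had groups that did not overlap. The 6 genes not tested were the tRNA genes mt-Tf, mt-Tv, mt-Ta, mt-Ts1, mt-Td and mt-Tk, which had between 0 and 6 reads over all 10 tumors together.

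**Figure D1:**
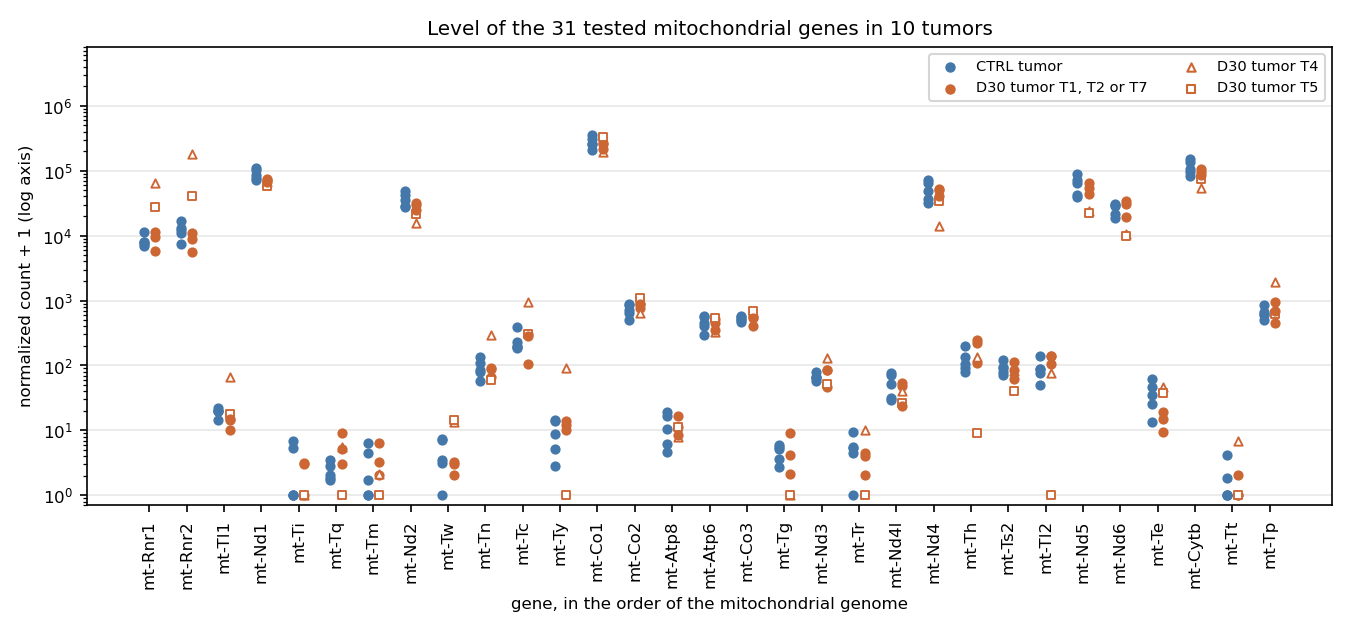
Normalized count plus 1 (log axis) of the 31 tested mitochondrial genes in genome order. Each point is 1 tumor, blue for CTRL and orange for D30, with T4 and T5 as open symbols. T4 and T5 lie above all other tumors for both rRNAs, and mt-Atp8, mt-Atp6, mt-Co2, mt-Co3, mt-Nd3 and mt-Nd4l lie far below the other mRNAs.

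Mitochondrial genes as a whole took a smaller share of the reads in D30 tumors on average, with overlapping ranges. The share was 1.86% in N1, 2.11% in N2, 1.56% in N4, 2.80% in N5 and 2.54% in N6, and 1.76% in T1, 1.96% in T2, 1.47% in T4, 1.61% in T5 and 1.56% in T7. The mean was 2.18% ± 0.501 (SD, n = 5) in CTRL and 1.67% ± 0.192 in D30. N2, N5 and N6 lay above every D30 tumor, while N1 and N4 lay within the D30 range. The 13 mRNAs made up nearly all of these reads, at 1.52% to 2.73% of all reads in CTRL and 0.892% to 1.90% in D30, with the lowest value in T4. Counting error was small beside these differences, the widest 95% interval (Wilson) of the mitochondrial share spanning 0.0109 percentage points, in N5. As a sum over genes chosen with earlier results known, the share was given no test.

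**Figure D2:**
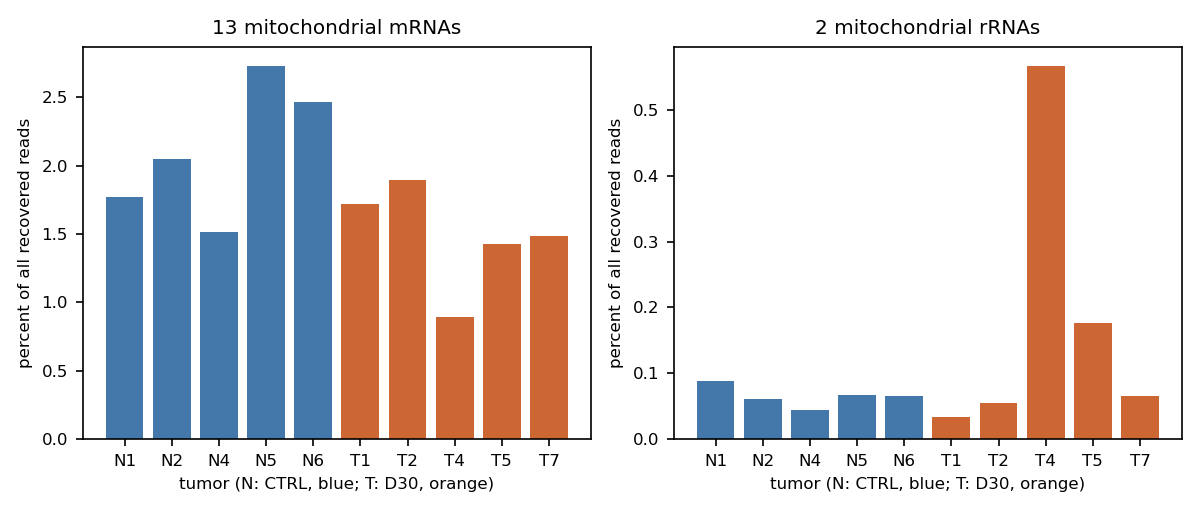
Percent of all recovered reads that fell on the 13 mitochondrial mRNAs (left) and the 2 mitochondrial rRNAs (right) in each tumor, with CTRL in blue and D30 in orange. The mRNA share is highest in N5 (2.73%) and lowest in T4 (0.892%), and the rRNA share is highest in T4 (0.568%) and next in T5 (0.177%).

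Complex I, the NADH dehydrogenase through which most electrons enter the chain, takes 7 of the 13 mRNAs, and 6 of these 7 had lower fitted levels in D30, none past the threshold. mt-Nd2 encodes a membrane subunit of its proton-pumping arm. It had 28287, 35459, 27116, 48782 and 42227 normalized counts in N1, N2, N4, N5 and N6, and 29197, 31204, 15619, 21789 and 25066 in T1, T2, T4, T5 and T7. Only N1 and N4 fell within the D30 range, while T4, T5 and T7 lay below every CTRL tumor. The log2 fold change (D30 over CTRL, limma on log2 of the normalized count plus 1) was -0.57 (95% confidence interval -1.10 to -0.04, unadjusted p = 0.0367, adjusted p = 0.253, limma). The value was -0.32 (adjusted p = 0.408, limma) when T4 and T5 were left out.

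mt-Nd5, the mRNA of another subunit of the pumping arm, had the lowest fitted fold change of the 13 mRNAs, at -0.62 (95% confidence interval -1.37 to 0.13, adjusted p = 0.386, limma). It stood at 42302, 65256, 39049, 87814 and 72823 in the CTRL tumors and at 54475, 65130, 23588, 22034 and 43262 in T1, T2, T4, T5 and T7. T4 and T5 were below all other tumors, and T1, T2 and T7 were within the CTRL range, so that without T4 and T5 the log2 fold change was -0.13. mt-Nd4 had a similar pattern, at 14222 in T4 against 32193 to 71231 in the CTRL tumors and 33572 to 51985 in the other D30 tumors, and its log2 fold change went from -0.47 to -0.02 without T4 and T5. mt-Nd1, which encodes a subunit close to the quinone site, lay at 70553 to 110993 in CTRL and at 57653 to 75259 in D30 tumors, with a log2 fold change of -0.39 (adjusted p = 0.361, limma) and of -0.31 without T4 and T5.

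mt-Nd6 is the mRNA whose sequence lies on the strand opposite to the other 12. It ranged from 18806 to 30358 in CTRL, and was 19156 in T1, 34589 in T2, 10585 in T4, 9833 in T5 and 30481 in T7. T4 and T5 lay below all CTRL tumors and T2 and T7 above them. The log2 fold change was -0.45 (adjusted p = 0.545, limma) and turned to 0.11 without T4 and T5. Relative to mt-Nd5, its neighbor on the other strand, mt-Nd6 stood at 0.346 to 0.548 in CTRL and 0.352 to 0.705 in D30, and the log2 ratio differed by 0.17 between the groups (two-sided exact permutation test over 252 splits, p = 0.389, adjusted over 3 ratios 0.583). mt-Nd3 and mt-Nd4l, the mRNAs of 2 small membrane subunits, had few counts in their annotated rows (46.3 to 128 and 22.4 to 76.1 over all tumors) and log2 fold changes of 0.16 and -0.40.

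Complex III has 1 mitochondrially encoded subunit, cytochrome b. Its mRNA, mt-Cytb, had 96443, 106043, 81538, 150936 and 134744 normalized counts in the CTRL tumors and 95710, 104186, 54467, 73088 and 84957 in the D30 tumors. T4 and T5 were below every CTRL tumor, and the other 3 D30 tumors lay in the lower part of the CTRL range. The log2 fold change was -0.47 (95% confidence interval -1.02 to 0.08, adjusted p = 0.378, limma).

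Of the 3 mRNAs of complex IV, cytochrome c oxidase, mt-Co1 had by far the most reads in its annotated row. It encodes the catalytic subunit and took 40.7% to 59.7% of the reads on the rows of the mitochondrial mRNAs, with the highest shares in T5 (59.7%) and T4 (51.2%). Its level was 210276 to 349121 in CTRL and 196171 to 326819 in D30, with a log2 fold change of -0.12 (adjusted p = 0.852, limma). mt-Co2, which receives electrons from cytochrome c, stood at 507 to 875 in CTRL and 638 to 1103 in D30 (log2 fold change 0.26, adjusted p = 0.586, limma), and mt-Co3 at 471 to 587 and 408 to 678 (0.10). The mRNAs of complex V, mt-Atp6 and mt-Atp8, had 297 to 572 and 3.65 to 17.97 normalized counts over the 10 tumors, with log2 fold changes of -0.06 and 0.11. mt-Co2, mt-Co3 and mt-Atp6 match chromosome 1 copies over nearly their whole length, and mt-Atp8 lies beside such a match. The values of these genes hold for their annotated rows only.

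**Figure D3:**
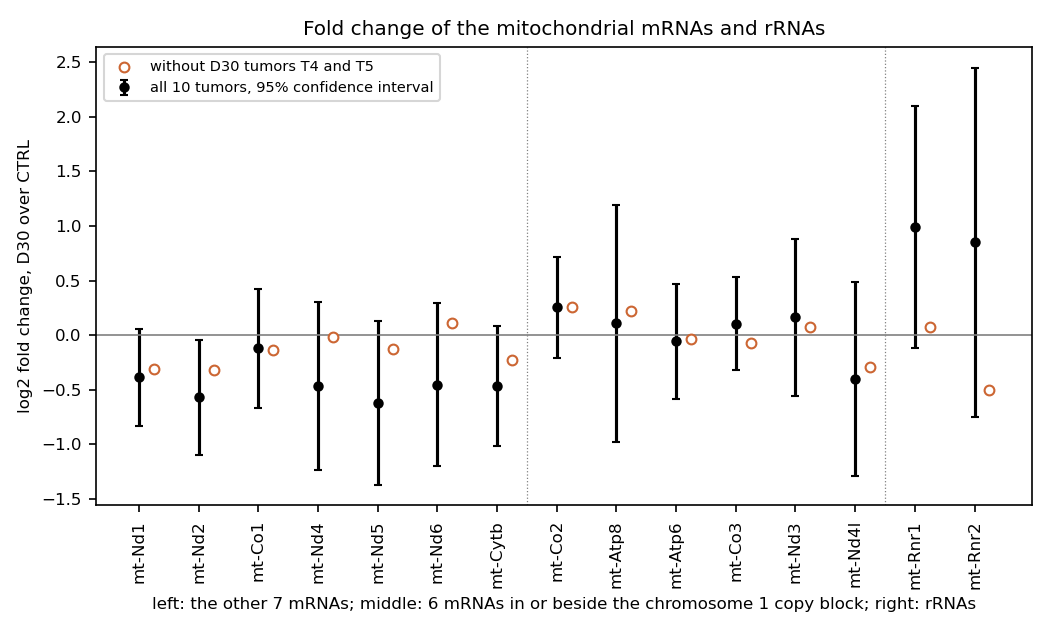
Log2 fold change (D30 over CTRL) of the 13 mitochondrial mRNAs and 2 rRNAs. Black points are the limma estimates over all 10 tumors with 95% confidence intervals, and orange circles are the estimates without T4 and T5. The 7 mRNAs at the left all lie below 0 with all tumors, and the circles lie nearer to 0 for all of them except mt-Co1.

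As shares of the mitochondrial mRNA reads, 3 of the 13 mRNAs did not overlap between the groups (4.23% of all tested genes did not, when their reads were divided by the same sum). The 13 mRNAs are the parts of that sum and other genes are not. These rates are therefore unlike measures, and no excess can be read from them. The shares add up to a fixed total and are therefore tied to each other, and they were given no test. mt-Nd2 made up 5.08% to 5.73% in CTRL and 3.98% to 5.01% in D30, and mt-Cytb 16.7% to 17.9% and 13.4% to 16.7%, the lowest CTRL and the highest D30 share of mt-Cytb being nearly equal. The annotated row of mt-Co2, which has a near-identical nuclear copy, made up 0.0911% to 0.132% in CTRL and 0.132% to 0.202% in D30, again with neighboring values at the boundary.

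The 13 mRNAs fell into 2 groups by level that follow the copy block of chromosome 1. Per length of the gene, the mean level over the 10 tumors ran from 868 to 5147 RPKM (recovered reads scaled to the length of the gene and to the depth of the tumor) in mt-Nd1, mt-Nd2, mt-Co1, mt-Nd4, mt-Nd5, mt-Nd6 and mt-Cytb. In mt-Co2, mt-Atp8, mt-Atp6, mt-Co3, mt-Nd3 and mt-Nd4l, the genes that match the block over nearly their whole length or, for mt-Atp8, lie beside such a match, it ran from 1.52 to 34.1. These 6 genes held 0.249% to 0.472% of the mitochondrial mRNA reads of a tumor. The values of these genes therefore belong to their annotated rows only, and how reads that match both places equally well were counted is not given in the sources used here. The part of that counting in the levels was not tested.

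The copies themselves also held reads. Gm28661 had 959 to 1894 normalized counts and exceeded mt-Co2 in 10 of 10 tumors, at 1.504 to 1.89 times its count. Gm28438 exceeded mt-Nd3 in 10 of 10 tumors, at 2.48 times in T5 and up to 10.7 times elsewhere. Gm10925 and Gm10222 exceeded mt-Atp6 and mt-Nd4l in 10 of 10 tumors and Gm28437 exceeded mt-Co3 in 9 of 10. In mt-Nd4 and mt-Co1, which match the block over a part of their length only, the copy had at most 0.0036 times the count of the gene. Gm13340, a copy of mt-Co1 on chromosome 2 with 97.6% identity, had 58.6 to 129 normalized counts. None of the copies with at least 95% identity that were tested was called, the smallest adjusted p (limma) being 0.363 for Gm28439.

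**Figure D4:**
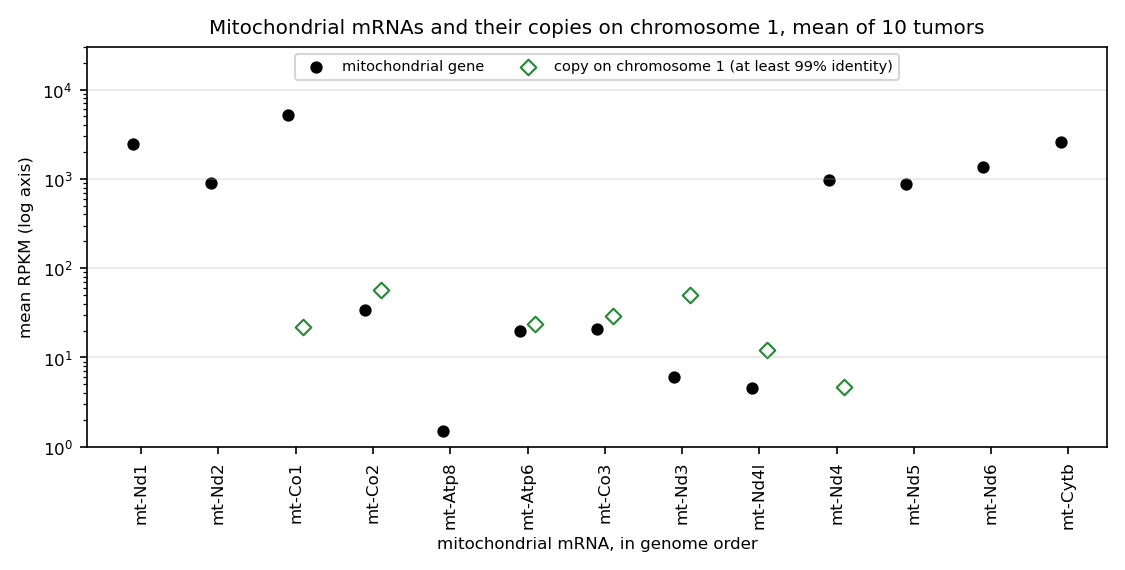
Mean level over 10 tumors, in RPKM (reads scaled to gene length and tumor depth) on a log axis, of the 13 mitochondrial mRNAs in genome order (black) and of their copies on chromosome 1 with at least 99% identity (green diamonds). The 6 genes in or beside the copy block reach at most 34.1, where the other 7 reach at least 868.

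The direction of the fitted fold changes also differed between these groups of genes, as a description without a test. Of the 7 mRNAs outside the block, all 7 had a log2 fold change below 0, with a median of -0.47, where the median over all tested genes was -0.06 and 45.3% of them lay above 0. Without T4 and T5 their median was -0.13 and mt-Nd6 alone lay above 0, at 0.11. Of the 6 in or beside the block, 4 lay above 0 and 2 below, with a median of 0.10, which was 0.02 without T4 and T5. With library-size scaling mt-Co2 alone of these 6 lay above 0, and the medians of the groups of 7 and 6 genes were -0.69 and -0.11. Summing each gene with its chromosome 1 copy left mt-Co2 at 0.28 and mt-Co3 at 0.12 and moved mt-Nd3 from 0.16 to -0.24, and 0 genes were called.

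The higher mean level of the rRNAs in D30 rested on T4 and T5. mt-Rnr1, the 12S rRNA of the small mitochondrial ribosomal subunit, had 11349, 7357, 6794, 7859 and 8056 normalized counts in the CTRL tumors and 5810, 9544, 65271, 27186 and 11286 in T1, T2, T4, T5 and T7. mt-Rnr2, the 16S rRNA of the large subunit, had 16593, 10981, 7406, 12856 and 12009 in CTRL and 5636, 8858, 178417, 40592 and 10971 in D30. In T4 the levels were 6.84 and 20.1 times the median of T1, T2 and T7, and in T5 they were 2.85 and 4.58 times that median. T1, T2 and T7 lay within the CTRL range or below it for both rRNAs. The log2 fold changes were 0.99 (95% confidence interval -0.12 to 2.10, adjusted p = 0.350, limma) for mt-Rnr1 and 0.85 (-0.75 to 2.45, adjusted p = 0.605, limma) for mt-Rnr2. When T4 and T5 were left out, they were 0.07 and -0.50.

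The balance between the rRNAs also set T4 apart. The ratio of mt-Rnr2 to mt-Rnr1 was 1.09 to 1.64 in CTRL, 0.928 to 0.972 in T1, T2 and T7, 1.49 in T5 and 2.73 in T4. The difference between the groups did not pass the exact permutation test (log2 difference -0.14, two-sided p = 0.730, adjusted over 3 ratios 0.730, smallest possible p 0.00794). Without T4 and T5 the log2 difference was -0.57 and the 3 remaining D30 tumors lay below every CTRL tumor. Because T4 and T5 held the highest D30 ratios, that difference was given no test. Relative to mt-Nd1, the mRNA that follows it on the genome, mt-Rnr2 stood at 0.105 to 0.213 in CTRL and at 0.0782 in T1, 0.118 in T2, 2.68 in T4, 0.704 in T5 and 0.165 in T7 (log2 difference 1.24, two-sided exact permutation p = 0.317, adjusted over 3 ratios 0.583). In T4 the rRNAs held 38.7% and in T5 11.0% of all mitochondrial reads, against 1.92% to 4.77% in the other 8 tumors. Whether the libraries were made by poly(A) selection or by removal of rRNA is not given in the sources used here, and its part in these levels was not tested.

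The same tumors departed from the others in the mRNAs, in the opposite direction. Compared with the 8 tumors other than T4 and T5, T4 lay below all 8 in 6 of the 13 mRNAs and above all 8 in 2, mt-Co3 and mt-Nd3. T5 lay below all 8 in 5 of the 13 and above all 8 in 2, mt-Co2 and mt-Co3. mt-Nd2, mt-Nd5, mt-Nd6 and mt-Cytb were below all 8 in both.

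tRNAs carried few reads, at most 0.591% of the mitochondrial reads of a tumor. The highest counts were those of mt-Tp and mt-Tc, the tRNAs for proline and cysteine, both on the strand that also carries mt-Nd6. Their sequences (M21, own strand) are shown with the anticodon in capitals, to show how short these transcripts are beside the mRNAs.
mt-Tp: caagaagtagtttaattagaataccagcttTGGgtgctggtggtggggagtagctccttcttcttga
mt-Tc: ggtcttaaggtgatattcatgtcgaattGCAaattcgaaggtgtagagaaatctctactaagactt

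mt-Tp had 604, 619, 501, 838 and 669 normalized counts in the CTRL tumors and 457, 954, 1949, 626 and 679 in the D30 tumors (log2 fold change 0.36, adjusted p = 0.633, limma). mt-Tc had 388, 201, 192, 232 and 185 in CTRL and 104, 305, 945, 302 and 282 in D30 (0.40, adjusted p = 0.71, limma, and -0.15 without T4 and T5). T4 was the highest tumor for both. Among the 9 tRNAs whose mean reached 10 normalized counts, T4 lay above the 8 tumors other than T4 and T5 in 5, namely mt-Tp, mt-Tc, mt-Tn, mt-Ty and mt-Tl1. All of these but mt-Tl1, which directly follows mt-Rnr2, lie on the strand of mt-Nd6. mt-Ty had 91.4 normalized counts in T4 and at most 13.3 in any other tumor. It reached the mean of 10 only through T4, so its place among the 5 rests on T4 itself.

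T5 showed another pattern. It lay below all 8 in 3 of the 9, namely mt-Th, mt-Ts2 and mt-Tl2, a row of 3 tRNA genes between mt-Nd4 and mt-Nd5. In T5 these had 8.01, 40.1 and 0 normalized counts, against 78.6 to 246, 61.7 to 121 and 48.4 to 140 in the other 9 tumors, and the 0 of mt-Tl2 allows a level of up to 3.43. mt-Ty was also at 0 in T5, but the level that this 0 allows exceeds the lowest of the 8, at 1.83, so T5 cannot be placed for it. mt-Te, the tRNA for glutamate, had 12.6, 45.5, 24.7, 62.0 and 34.2 in the CTRL tumors and 18.5, 13.7, 46.3, 36.6 and 8.52 in the D30 tumors, with overlapping groups. The other 7 tRNAs tested, mt-Ti, mt-Tq, mt-Tm, mt-Tw, mt-Tg, mt-Tr and mt-Tt, had 10 to 48 reads each over all tumors and at most 13.7 normalized counts in any tumor. Over the 16 tRNAs tested, 9 had a log2 fold change above 0 and 7 below, from -0.95 to 0.72.

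Nuclear genes that copy, transcribe, process and regulate the mitochondrial genome were then compared between the groups, to give the setting of these values. The lists were compiled with earlier results of these data known. Of 99 such genes 2 were called, where 2.76% of all genes were. Both were regulators of mitochondrial biogenesis, and they moved in opposite directions. Ppargc1a, which encodes the coactivator PGC-1alpha, had 213, 335, 160, 366 and 196 normalized counts in the CTRL tumors and 94.6, 116, 46.3, 145 and 47.9 in the D30 tumors. All 5 D30 tumors lay below all 5 CTRL tumors, with a log2 fold change of -1.56 (adjusted p = 0.0478, limma). Esrra, which encodes the nuclear receptor ERR-alpha that works together with PGC-1alpha, had 2151, 2181, 2100, 2192 and 2552 in CTRL and 3527, 4466, 7069, 2786 and 4290 in D30, again without overlap, with a log2 fold change of 0.92 (adjusted p = 0.0491, limma). Both calls were close to the threshold. Each was lost when any 1 CTRL tumor, T1, T2 or T7 was left out, with an adjusted p (limma) of up to 0.152 for Ppargc1a and 0.137 for Esrra. Ppargc1a was also not called with edgeR (adjusted p = 0.0549), a pseudocount of 10, no filter or no trend, and Esrra not with library-size scaling (adjusted p = 0.0970, limma), other scalings, no filter or no trend.

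Ppargc1b, a related coactivator, had 12.4 to 18.8 normalized counts in CTRL and 97.7, 142, 63.0 and 65.0 in T1, T2, T5 and T7, but 8.10 in T4. Its log2 fold change of 1.83 had an adjusted p of 0.152 (limma) over all tumors and of 0.0486 with edgeR. It was 2.63 without T4 and T5, with no test given because T4 was the D30 tumor without the higher level. Sucla2, a succinyl-CoA synthetase subunit that supports the nucleotide supply for mitochondrial DNA, had 1037 to 1305 in CTRL and 2751, 2208, 1261, 1741 and 2972 in T1, T2, T4, T5 and T7, with a log2 fold change of 0.86 (adjusted p = 0.0689, limma). Only T4 fell within the CTRL range for it. Sucla2 was called with DESeq2 (adjusted p = 0.0055) and with upper-quartile scaling (adjusted p = 0.0348, limma). Without T4 and T5 it stood at 1.19, with no test given for the same reason.

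By role, 0 of 10 transcription genes, 0 of 22 genes of replication and nucleotide supply, 0 of 40 genes of RNA processing, modification and decay, and 0 of 17 mitochondrial aminoacyl-tRNA synthetases were called by limma over all tumors. At an unadjusted p under 0.05 the counts were 0, 4, 0 and 2 (17.3% of all genes), and with DESeq2 5 of the 99 genes were called (7.97% of all genes). Without T4 and T5, 10 of the 99 were called by limma, against 8.57% of all genes. Polrmt, the RNA polymerase of the mitochondrion, had 200 normalized counts in T4 and 674 in T5, against 713 to 1447 in the other 8 tumors. Its log2 fold change was -0.56 (adjusted p = 0.586, limma), and 0.19 without T4 and T5. Tfb2m, a partner of the polymerase in starting transcription, stood at -0.31 (adjusted p = 0.511, limma) and Mterf2, of the termination factor family, at -0.41 (adjusted p = 0.479, limma).

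Among the genes of replication and nucleotide supply, Abat, a transaminase that also takes part in mitochondrial nucleotide metabolism, had 114 to 224 normalized counts in CTRL and 27.5 to 136 in D30 (log2 fold change -1.23, adjusted p = 0.132 with limma and 0.0465 with DESeq2). Mpv17, an inner membrane protein needed to maintain mitochondrial DNA, stood at -0.75 (adjusted p = 0.248, limma) and at -1.08 without T4 and T5. No test is given for the latter, because T4 (2037) was the only D30 tumor within the CTRL range (1077 to 2109). Of the genes of RNA processing, Mto1, which modifies tRNAs, stood at -0.48 (adjusted p = 0.314, limma). Nsun4, an rRNA methyltransferase, stood at -0.41 (adjusted p = 0.371, limma) and Ngrn, which is needed for the 16S rRNA, at 0.48 (adjusted p = 0.372, limma). Lars2, the leucyl-tRNA synthetase, had 3142 to 4740 in CTRL and 5108 to 10105 in D30, with the highest level in T5 (log2 fold change 0.62, adjusted p = 0.156, limma). Ears2, the glutamyl-tRNA synthetase, had 362 to 484 in CTRL and 511 to 859 in D30 (0.57, adjusted p = 0.198, limma), and Aars2, the alanyl-tRNA synthetase, stood at -0.80 (adjusted p = 0.328, limma).

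Of 77 proteins of the mitochondrial ribosome 0 were called, and 10 had an unadjusted p under 0.05 (17.3% of all genes). Their median log2 fold change was 0.17, with 64 above 0 and 13 below, where 45.3% of all genes lay above 0. With library-size scaling 34 lay above 0 (31.7% of all genes), and without T4 and T5 46 did (47.6% of all genes) with a median of 0.07. The 3 with the smallest p were the large-subunit proteins Mrpl24, at 0.54 (adjusted p = 0.145 with limma and 0.0468 with DESeq2), Mrpl9, at 0.49 (adjusted p = 0.15, limma), and Mrpl52, at 0.58 (adjusted p = 0.153, limma). Malat1 and Neat1, 2 long RNAs that stay in the nucleus, stood at 0.66 (adjusted p = 0.182, limma) and 0.55 (adjusted p = 0.479, limma).

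Nuclear-encoded subunits of the respiratory chain had fitted fold changes in the other direction from most of the mitochondrial mRNAs. All 81 had a log2 fold change above 0, against 45.3% of all tested genes, with medians of 0.42 for the 37 of complex I, 0.22 for the 4 of complex II, 0.49 for the 9 of complex III, 0.51 for the 14 of complex IV and 0.45 for the 17 of complex V. Only 1 of the 81 was called (2.76% of all genes), and 23 had an unadjusted p under 0.05 (17.3% of all genes). These counts describe the list and are no test of it, since genes are not independent replicates. The medians in this order were 0.25, 0.25, 0.33, 0.17 and 0.22 without T4 and T5, and 0.19, 0.001, 0.27, 0.28 and 0.23 with scaling by library size. With that scaling 65 of the 81 lay above 0 (31.7% of all genes), and it moved the median of all genes from -0.06 to -0.27. Without T4 and T5, 71 of the 81 lay above 0 (47.6% of all genes) and 4 were called (8.57% of all genes).

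The called gene was Ndufa6, an accessory subunit of complex I. It had 2846, 2573, 3000, 2357 and 2582 normalized counts in the CTRL tumors and 3352, 4210, 5512, 4714 and 4379 in the D30 tumors. The groups did not overlap, and the log2 fold change was 0.72 (adjusted p = 0.0448, limma). The call was lost when any 1 CTRL tumor, T2, T5 or T7 was left out, with an adjusted p (limma) of up to 0.141. It was also lost with no filter, no trend, upper-quartile scaling and library-size scaling (adjusted p = 0.106, limma). Ndufa3, also of complex I, had 775 to 1093 in CTRL and 1315 to 2304 in D30 (0.79, adjusted p = 0.0560, limma), and Cox8a, of complex IV, 5590 to 8025 and 8588 to 17268 (0.74, adjusted p = 0.0797, limma), without overlap but not past the threshold. Uqcr11, of complex III, had 1547 to 2381 and 2262 to 4326, with a log2 fold change of 0.74 (adjusted p = 0.0861, limma). T4 had the highest level of all of these 3 genes, and T5 the lowest D30 level of Ndufa3 and Uqcr11. Without T4 and T5 the log2 fold changes were 0.76 for Ndufa3, 0.58 for Cox8a and 0.78 for Uqcr11, with no test given. T4 and T5 were set apart with these data known, so these values are a description.

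The other subunits with the smallest p of their complexes lay above 0 and did not pass the test. Ndufb3, of complex I, had 923 to 1421 normalized counts in CTRL and 1450 to 4419 in D30 (log2 fold change 0.84, adjusted p = 0.161, limma). In complex II, succinate dehydrogenase, Sdhd stood at 0.60 (adjusted p = 0.186, limma), Sdhc at 0.35 (adjusted p = 0.330, limma) and Sdhb at 0.10 (adjusted p = 0.890, limma), and Sdhb lay below 0 with library-size scaling (-0.13) and without T4 and T5 (-0.13). In complex III, Uqcrq stood at 0.72 (adjusted p = 0.276, limma) and Uqcrh at 0.68 (adjusted p = 0.279, limma). In complex IV, Cox5b stood at 0.87 (adjusted p = 0.152, limma) and Cox6a1, whose groups did not overlap, at 0.56 (adjusted p = 0.178, limma). In complex V, Atp5d had 4378 to 6687 in CTRL and 6907 to 10197 in D30 (0.55, adjusted p = 0.133, limma), while Atp5g2 stood at 0.53 (adjusted p = 0.220, limma). Atp5b, the catalytic subunit of ATP synthase, had 19534 to 25798 in CTRL and 27870 to 31515 in D30 (0.41, adjusted p = 0.222, limma).

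T4 had the highest mean level of the nuclear subunits and the lowest of the 7 mitochondrial mRNAs outside the copy block. As the mean log2 deviation from the average of the 10 tumors, the 81 nuclear subunits stood at 1.02 in T4 and between -0.51 and 0.24 in the other 9. T4 was also highest for the 77 proteins of the mitochondrial ribosome, at 0.87 against -0.34 to 0.26 in the other 9. The 7 mitochondrial mRNAs outside the copy block stood at -0.84 in T4, -0.48 in T5 and between -0.17 and 0.65 in the other 8. N5 was at the other end, with the highest mitochondrial value (0.65) and the lowest nuclear value (-0.51). The other D30 tumors T1, T2 and T7 lay among the CTRL tumors for the mitochondrial mRNAs, at 0.04, 0.25 and -0.07.

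**Figure D5:**
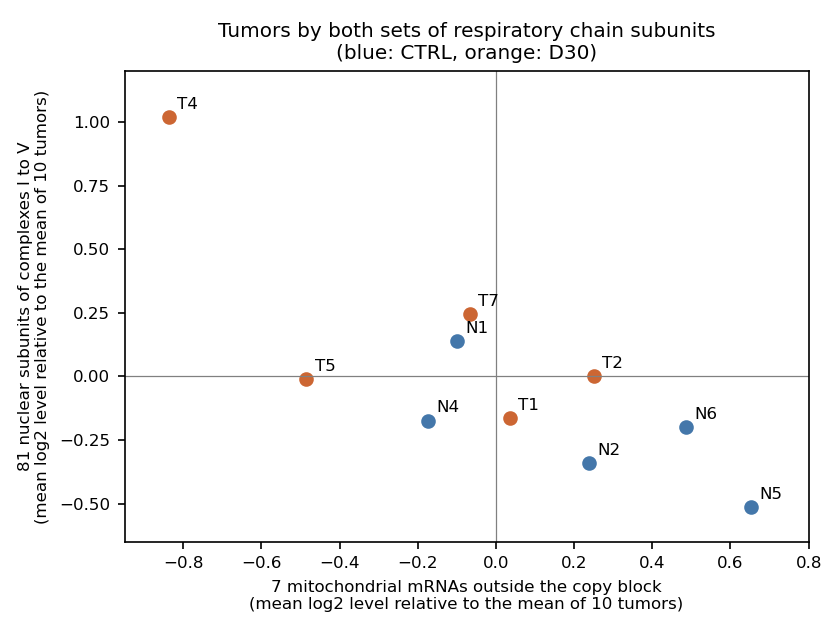
Mean log2 deviation of each tumor from the average of the 10 tumors, for the 7 mitochondrial mRNAs outside the copy block (horizontal axis) and the 81 nuclear subunits of complexes I to V (vertical axis). Each point is 1 tumor, blue for CTRL and orange for D30. T4 lies at the upper left (-0.84 and 1.02) and N5 at the lower right (0.65 and -0.51).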

How the data were processed

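Per the study's methods, the authors made strand-specific libraries, sequenced them as 150-base read pairs, trimmed them with Trim Galore, and used STAR, RSEM and DESeq2. The submitters' processing notes name STAR 2.7.0e and GRCm39, the methods name hg38, and the table lists mouse identifiers. The counting settings are not given in the sources used here. The deposited values are a normalized signal, a count divided by a size factor, and 100.0% were whole reads (tolerance 0.01). Columns were assigned to groups by their letter. Symbols and positions came from GENCODE M21 (GRCm38), which matched 94.1% of the identifiers without version. Copies were found with BLAST 2.17.0. One copy was not analysed here.

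The main test was limma 3.58.1 (R 4.3.3) with a mean-variance trend on log2(normalized count + 1), over genes with a mean of at least 1, with Benjamini-Hochberg adjustment over all 24560 genes. edgeR 4.0.16, DESeq2 1.42.0 and other scalings, filters and pseudocounts were alternatives. Scripts were tested on simulated data. Single ratios were compared by exact permutation tests. The precision of a value is set by the 29192261 to 42122304 reads of a tumor. The intervals of fold changes cover the spread between tumors, and the Wilson intervals of read shares cover only the counting error within a tumor. Named were all 37 genes, in each nuclear list the called genes and the 3 with the smallest p, and copies with a mean of at least 10. The members and lists were chosen with earlier results of these data known.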

Additional observations from a re-analysis of the deposited data

Results flagged for a closer look

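In 9 of 56 groups of 5 tumors, the highest or lowest tumor stood apart from the rest, in that its gap to the nearest tumor divided by the range of the group exceeded 0.71. Chance gives about 1 in 20 groups, and genes of 1 tumor are not independent. In D30, T4 stood apart for mt-Rnr2 (178417 normalized counts, the nearest tumor at 40592), mt-Tl1 (65.9, nearest 17.2), mt-Tn (295, nearest 90.5), mt-Tc (945, nearest 305) and mt-Ty (91.4, nearest 12.8), and for the ratio of mt-Rnr2 to mt-Nd1 (2.68, nearest 0.704). In CTRL, N1 stood apart for mt-Rnr1 (11349 normalized counts, nearest 8056), mt-Tc (388, nearest 232) and the ratio of mt-Rnr2 to mt-Nd1 (0.213, nearest 0.129). mt-Tc and that ratio thus had such a tumor in both groups. mt-Ty reached a mean of 10 normalized counts only through T4.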

How the results depend on the processing

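No paired analysis was possible because the columns carry no replicate numbers of the labels. Over all settings tried, 0 mitochondrial genes were called, and the smallest adjusted p of an mRNA, a rRNA, mt-Tp or mt-Tc was 0.0537. The difference in the mitochondrial share of reads (-0.51 percentage points) ran from -0.66 to -0.35 when 1 tumor was left out.

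Over all genes limma called 678, DESeq2 1957, limma without T4 and T5 2105, and limma with 1 tumor left out 270 to 1530. No value that changed direction was past the threshold. mt-Atp8 was -0.092 with library-size scaling, -0.099 with scaling by reads outside the mitochondrial genome, -0.062 with edgeR and -0.054 with DESeq2, and -0.17 to 0.34 with 1 tumor left out. mt-Co3 was -0.12 and -0.13 and mt-Nd3 -0.059 and -0.066 with these scalings, and mt-Nd3 was -0.24 with its copy summed. With 1 tumor left out, mt-Atp6 was -0.20 to 0.039, mt-Nd3 -0.039 to 0.32 and mt-Tc -0.011 to 0.78. Without T4 and T5, mt-Co3 was -0.076, mt-Nd6 0.11, mt-Rnr2 -0.50, mt-Tc -0.15 and Polrmt 0.19. Sdhb was -0.13 there and with both of these scalings, and -0.16 to 0.21 with 1 tumor left out. The log2 ratio of mt-Rnr2 to mt-Nd1 was then -0.19, and that of mt-Rnr2 to mt-Rnr1 -0.57, with no test given because T4 and T5 held the highest D30 ratios. The causes were not tested.

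Among the 99 nuclear genes of mitochondrial expression, 1 was called with a pseudocount of 10, library-size, TMM or non-mitochondrial scaling, and 0 with no filter or no trend. DESeq2 called 5 (7.97% of all genes) and limma without T4 and T5 called 10 (8.57% of all genes). With 1 tumor left out limma called 0 to 7, the 7 without T4 (1530 of all 24560 genes). Among the 81 subunits, 0 were called with no filter, no trend, library-size, upper-quartile or non-mitochondrial scaling, and 2 with a filter at 10. DESeq2 called 6 (7.97% of all genes) and limma without T4 and T5 called 4 (8.57% of all genes). With 1 tumor left out limma called 0 to 3, with 3 without T4 (1530 of all 24560 genes) and 2 without T5 (815). Over all genes, 600 of 33001 were called with no filter and 687 of 17361 with a filter at 10. No trend and the other pseudocounts and scalings called 568 to 878 of 24560. Ppargc1a, Esrra and Ndufa6 kept their directions and reached adjusted p (limma) of 0.152, 0.137 and 0.141 at most. A count of 2 need not hold the same genes, since edgeR called Ppargc1b and not Ppargc1a, and upper-quartile scaling Sucla2 and not Esrra. Of the 32 nuclear genes named and not called, 11 passed under at least 1 alternative. These were 10 with DESeq2 (7.97% of all genes) and 6 without T4 and T5 (8.57% of all genes). The 32 were named for the smallest p of their lists, and T4 and T5 were set apart with these data known. The counts therefore describe chosen genes and not the lists.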
